A study of Mus musculus with 18 samples.

Results

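Iron and heme handling was followed through 8 genes, Hmox1, Blvrb, Slc40a1, Slc11a1, Fth1, Ftl1, Tfrc and Trf, in cells sorted from mouse livers carrying metastases of MC38 cells, a mouse colon adenocarcinoma line. The genes were chosen by name. All 8 were among the 13759 genes of the macrophage count table and the 54309 genes of the lymphocyte count table. They passed the filter on low counts in the macrophages (8 of 8), whereas 7 of 8 passed it in the lymphocytes, where Slc40a1 did not.

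The mice were female per the labels. Per the study's general methods, C57BL/6J mice aged 8 to 10 weeks received MC38 cells into the spleen and their livers were analyzed 20 days later. Metastasis-associated macrophages were sorted from liver metastases as CD45+ CD11b+ cells with high or low F4/80, a macrophage surface protein, with 3 libraries of F4/80high and 3 of F4/80low cells. For the type 1 lymphocytes 6 to 8 samples were pooled per sort, which gave NK cells (CD49a- CD49b+) and ILC1 (CD49a+ CD49b-) of metastasis-free liver (MFL), and CD49a- and CD49a+ NK cells of liver metastasis (LM), with 3 libraries each. Both LM populations were sorted as CD49b+. LM tissue was digested with enzymes whereas MFL parenchyma was pressed through a filter, so site and dissociation cannot be told apart in the lymphocytes. The titles of the LM CD49a+ libraries name them ILC1, and they were grouped here by their cell type label, CD49a+ NK cells. The labels name no engineered allele, and every animal received tumor cells, so neither table holds a tumor-free control.

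The macrophage libraries held 21278959 to 32267015 counts and the lymphocyte libraries 8795721 to 14386834. Values are CPM, which are counts scaled to a common library size with TMM factors. Differences are log2 fold changes fitted with edgeR, tested by quasi-likelihood, with p-values adjusted over all genes tested (Benjamini-Hochberg). A gene was called at an adjusted p under 0.1. Both macrophage gates held macrophage transcripts, and the 10 macrophage markers summed to 14558 to 18326 CPM in F4/80high and to 6338 to 7679 CPM in F4/80low libraries. Adgre1, which encodes F4/80 itself, was 2.71 ± 0.17 (SE) higher on the log2 scale in F4/80high cells (adjusted p = 8.6e-06). Dendritic cell markers, 6 of 6 in the table, summed to 10.1 to 16.2 CPM in F4/80high and 375 to 668 CPM in F4/80low libraries, and classical monocyte markers to 950 to 1228 and 2314 to 2683 CPM. Of the 6 tumor epithelium markers listed, only Epcam and Cdh1 were among the genes counted in the macrophages. They summed to 8.30 to 11.8 and 197 to 281 CPM. Krt8, Krt18, Krt19 and Cldn7 were not among them, and which cells held the Epcam and Cdh1 RNA was not tested. The part of other cell types in the members' values was not tested either. In such bulk samples fewer cells that express a gene and less of its RNA per cell cannot be told apart.

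Macrophages take apart hemoglobin from red cells and return the iron to the body. Heme oxygenase 1 (Hmox1) opens the heme ring, which releases iron, carbon monoxide and biliverdin, and the biliverdin reductases reduce biliverdin to bilirubin. Freed iron is stored in ferritin, a shell of heavy (Fth1) and light (Ftl1) chains, or leaves the cell through ferroportin (Slc40a1). Slc11a1 (NRAMP1) carries iron and manganese across the phagosome membrane, and iron bound to transferrin (Trf) enters cells through the transferrin receptor (Tfrc). In liver, resident Kupffer cells are the main site of red cell clearance, and hepatocytes make most of the transferrin in plasma.

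The ferritins, ferroportin and Tfrc are also set after transcription. Iron regulatory proteins bind a hairpin, the iron-responsive element, when the cell is short of iron. Bound in the 5′ UTR they block translation of ferritin and ferroportin, and bound in the 3′ UTR they protect Tfrc mRNA from decay. RNA levels of Fth1, Ftl1 and Slc40a1 are therefore no measure of their proteins. The elements are shown to divide the members into those in which the search below found such an element and those in which it did not. The sense strand of the canonical GENCODE vM39 transcript of each gene was searched for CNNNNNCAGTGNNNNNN in which the 5 bases after the first C pair with the last 5, G with U allowed. Each sequence runs 5′ to 3′ over 27 bases from 5 bases before the unpaired C, in DNA letters, with the loop in capitals:
Fth1 5′ UTR: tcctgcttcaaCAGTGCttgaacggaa
Ftl1 5′ UTR: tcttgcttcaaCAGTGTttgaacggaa
Slc40a1 5′ UTR: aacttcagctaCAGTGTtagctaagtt
Tfrc 3′ UTR, base 3326: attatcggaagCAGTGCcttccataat
Tfrc 3′ UTR, base 3705: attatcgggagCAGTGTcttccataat
Tfrc 3′ UTR, base 3770: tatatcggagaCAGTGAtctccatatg
Tfrc 3′ UTR, base 3817: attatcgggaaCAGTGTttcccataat

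The match lay in 4 of the 8 members and in a UTR of 0.684% of 21770 canonical coding transcripts. Positions count from the first base of the transcript to the unpaired C, which is base 93 of 929 in Fth1, base 84 of 969 in Ftl1 and base 172 of 3463 in Slc40a1. The 5 bases on either side of the loop were the same in Fth1 and Ftl1. Hmox1, Blvrb, Slc11a1 and Trf held no such match in the transcripts searched. Other forms of the element were not sought. In the GRCm39 assembly Fth1 lies on chromosome 19 from 9957911 to 9962462, Ftl1 on chromosome 7 from 45107367 to 45109308, Slc40a1 on chromosome 1 from 45947211 to 45965683 and Tfrc on chromosome 16 from 32427556 to 32451612.

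Between the macrophage gates, 3 of the 8 members were called, Blvrb, Trf and Slc40a1, and all 3 were higher in F4/80high cells. The gates differed widely, and 54.9% of the 13759 genes tested were called, 27.8% of them all as higher and 27.1% as lower, so a count of 3 of 8 was below that of the whole table and no result about the set. Hmox1, Slc11a1, Fth1, Ftl1 and Tfrc were not called with all 6 libraries. The same 3 members were also those whose libraries did not overlap between the gates, against 58.4% of all genes, 29.8% of all genes being higher without overlap.

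**Figure D1:**
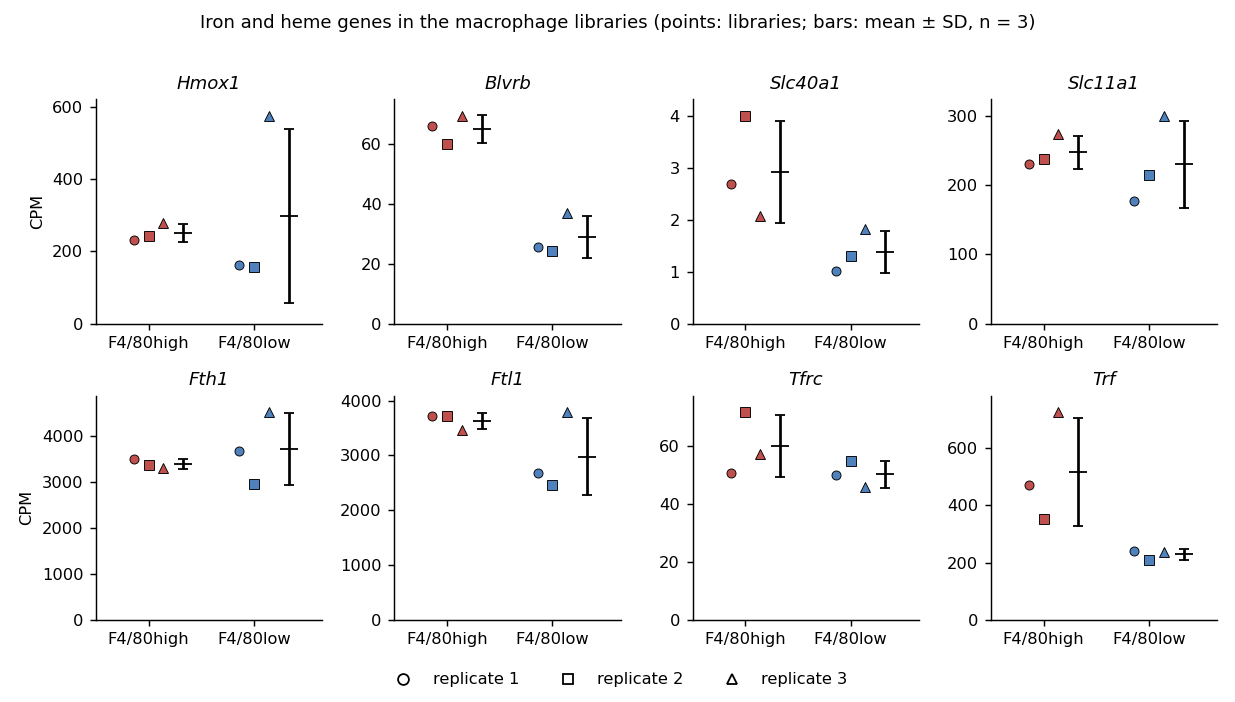
CPM of the 8 genes (y axis, from 0) in each macrophage library by gate (x axis), with the replicate given by the symbol and the mean ± SD of 3 libraries as a bar. The F4/80high and F4/80low points separate for Blvrb, Slc40a1 and Trf, and F4/80low replicate 3 stands above the other F4/80low libraries for Hmox1 at 575 CPM.

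Per kilobase of the canonical transcript, the ferritins were the most abundant members in both gates. In F4/80high libraries the order was Ftl1 at 3750 ± 153 CPM per kilobase (SD, n = 3), Fth1 at 3655 ± 112, Trf at 201 ± 74.0, Hmox1 at 159 ± 15.5, Slc11a1 at 95.03 ± 9.21, Blvrb at 56.2 ± 4.14, Tfrc at 12.3 ± 2.18 and Slc40a1 at 0.845 ± 0.284. Neither Ftl1 and Fth1 nor Trf and Hmox1 differed beyond their spread, whereas the other neighbours did. In F4/80low libraries the order was Fth1 at 4005 ± 844 CPM per kilobase, Ftl1 at 3074 ± 732, Hmox1 at 189 ± 152, Trf at 88.9 ± 6.91, Slc11a1 at 88.5 ± 24.3, Blvrb at 25.1 ± 6.09, Tfrc at 10.3 ± 0.943 and Slc40a1 at 0.398 ± 0.117. There the ferritins overlapped, as did Trf and Slc11a1, and the SD of Hmox1 spanned the means of both.

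Of the heme breakdown genes, Blvrb and Blvra were higher in F4/80high cells, while Hmox1 overlapped because of F4/80low replicate 3. Blvrb, which reduces biliverdin and also acts as a flavin reductase, read 65.8, 59.8 and 69.3 CPM in F4/80high replicates 1 to 3 and 25.5, 24.3 and 37.1 CPM in F4/80low replicates 1 to 3. Every F4/80high library was above every F4/80low library. The log2 fold change was 1.17 ± 0.16 (SE, adjusted p = 0.00055), which is 2.25-fold, and it lay between 1.06 and 1.38 with any 1 library left out. Blvra, the other biliverdin reductase, was higher as well, with 55.2, 50.7 and 46.5 CPM against 29.5, 27.3 and 31.5 CPM and a log2 fold change of 0.79 ± 0.10 (adjusted p = 0.00032).

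Hmox1, on chromosome 8 from 75820241 to 75827217, read 233, 242 and 279 CPM in the F4/80high libraries and 161, 157 and 575 CPM in the F4/80low libraries. Both extremes were thus F4/80low libraries, and replicate 3 held more than any other library. It differed by −0.24 on the log2 scale with a 95% interval from −1.29 to 0.80 (adjusted p = 0.69). Hmox2, the constitutive heme oxygenase, read 103 to 113 CPM in F4/80high and 101 to 115 CPM in F4/80low libraries, which overlapped (log2 fold change 0.00, adjusted p = 0.98).

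The value of Hmox1 rested on that single library. Without F4/80low replicate 3 the direction turned, and Hmox1 was higher in F4/80high cells by 0.66 ± 0.12 (adjusted p = 0.0034). Without both replicate 3 libraries, an alternative chosen after the data were seen, the log2 fold change was 0.57 (adjusted p = 0.0039). With the replicate number as a block it was 0.05 (adjusted p = 0.92). Leaving out any of the other libraries gave values below 0, down to −0.55, and adjusted p up to 0.80.

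**Figure D2:**
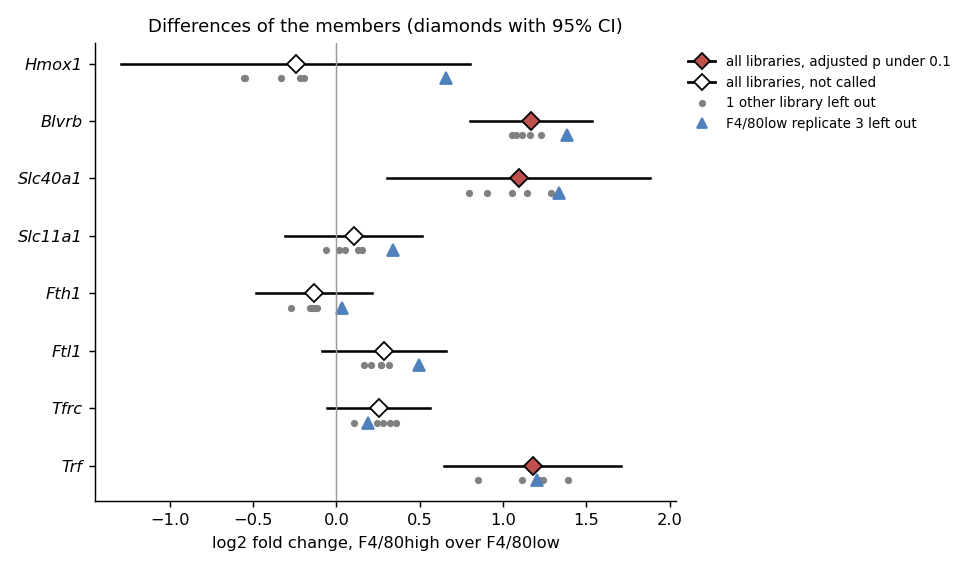
Log2 fold change of each gene, F4/80high over F4/80low (x axis), as a diamond with its 95% interval, filled where the adjusted p was under 0.1, and below it the values with 1 library left out. The value of Hmox1 moves from −0.24 to 0.66 without F4/80low replicate 3 (triangle), whereas Blvrb and Trf stay above 0.8 throughout.

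F4/80low replicate 3 held the highest value of its group for 6 of the 8 members, Hmox1, Blvrb, Slc40a1, Slc11a1, Fth1 and Ftl1, against 31.6% of all 13759 genes. Its Hmox1 value was 3.61 times the mean of the other F4/80low libraries, which ranked 10th among the 10080 genes with a mean of at least 5 CPM. In the library as a whole 0.853% of those genes departed 2-fold or more from the other libraries of the group, and in the other 5 libraries 0.337% to 0.833% did, so it did not stand apart as a whole. The first ranks were Hba-a2, Hbb-bs and Hba-a1, which encode hemoglobin chains. The 4 hemoglobin genes summed to 2.43, 1.49 and 42.6 CPM in F4/80high replicates 1 to 3 and to 3.84, 2.08 and 100.1 CPM in F4/80low replicates 1 to 3. Both replicate 3 libraries were therefore high in hemoglobin RNA, and the F4/80low one was highest. These 4 were the erythroid markers in the table, of 11 listed.

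Other genes near Hmox1 in that ranking were chosen here after their values were seen. Egln3, an oxygen-sensing prolyl hydroxylase induced in hypoxia, read 33.1, 28.1 and 109 CPM in F4/80low replicates 1 to 3 and 9.77 to 13.7 CPM in F4/80high libraries. Hilpda, a lipid droplet protein induced in hypoxia, read 35.9, 15.2 and 79.4 CPM, and Nos2, the inducible nitric oxide synthase, read 26.6, 12.5 and 77.2 CPM in the same libraries. The part of hemoglobin RNA, and of whatever these genes share, in the Hmox1 value was not tested.

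**Figure D3:**
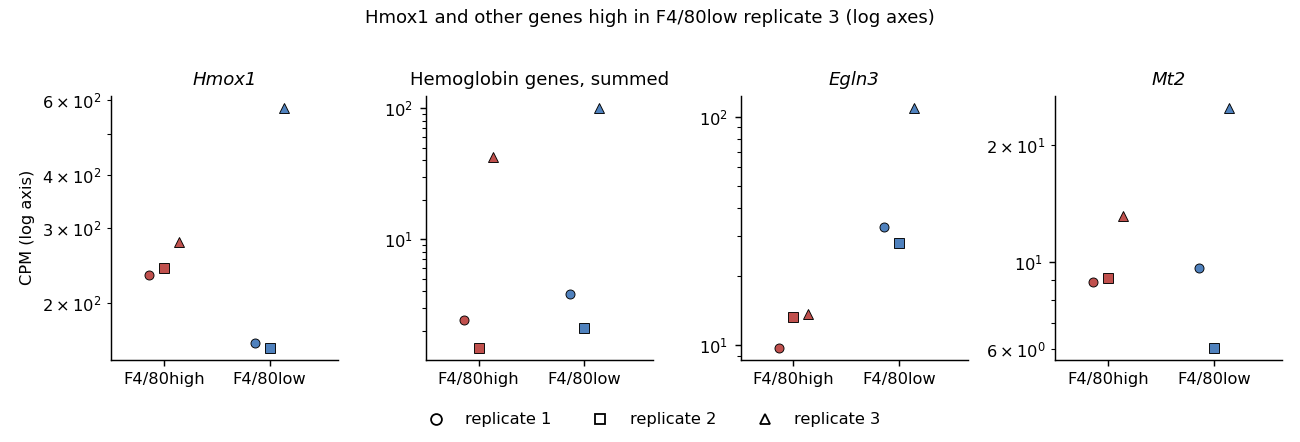
CPM on log axes of Hmox1, of the 4 hemoglobin genes summed, of Egln3 and of Mt2 in each macrophage library, with the replicate given by the symbol. F4/80low replicate 3 is the highest library in all 4 panels, and F4/80high replicate 3 follows it in the hemoglobin panel at 42.6 CPM.

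The pattern most like that of Hmox1 over the 6 libraries was that of Mt2, a metallothionein that binds zinc and copper, with a root mean square difference of 0.234 in centred log2 CPM among 10080 genes. Mt2 read 8.92, 9.14 and 13.1 CPM in F4/80high and 9.65, 6.04 and 24.9 CPM in F4/80low replicates 1 to 3. Jag1, a Notch ligand, followed at 0.271 and Rusc2 at 0.272. For Slc40a1 the nearest were Hyal2, a hyaluronidase, at 0.191, Gcat at 0.192 and Bcar3 at 0.202. Hyal2 read 14.3, 18.3 and 14.7 CPM against 6.37, 8.26 and 10.6 CPM.

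Iron export showed a called difference at a low level. Slc40a1 read 2.70, 4.00 and 2.08 CPM in F4/80high replicates 1 to 3 and 1.02, 1.30 and 1.82 CPM in F4/80low replicates 1 to 3, from 31 to 113 counts per library. The groups did not overlap, but the lowest F4/80high and the highest F4/80low library, both replicate 3, lay close together. The log2 fold change was 1.09 ± 0.34 (adjusted p = 0.029). It stayed called with any 1 library left out (adjusted p 0.022 to 0.0998), and the call was lost without both replicate 1 libraries (0.97, adjusted p = 0.14) and without both replicate 2 libraries (0.76, adjusted p = 0.18). Of the 6 Kupffer cell markers 4 were called as higher, and they summed to 70.9 to 101 CPM in F4/80high and 12.6 to 19.2 CPM in F4/80low libraries. Folr2 made up most of the sum in F4/80high libraries, at 55.1 to 94.0 CPM, and read 2.22 to 8.35 CPM in F4/80low libraries, while Clec4f was at or below 2.80 CPM in every library and Timd4 was lower in F4/80high cells (log2 fold change −4.44, adjusted p = 7.5e-05). The part of Kupffer cells in the Slc40a1 value was not tested.

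Ceruloplasmin (Cp), the ferroxidase that oxidizes iron as ferroportin releases it, had the largest difference of the export list. It read 52.7, 38.6 and 87.9 CPM in F4/80high and 2.07, 2.01 and 2.42 CPM in F4/80low replicates 1 to 3. Cp was thus higher by 4.79 ± 0.33 on the log2 scale (adjusted p = 1.4e-05). Hfe, which takes part in iron sensing upstream of hepcidin, was 0.42 ± 0.11 higher (adjusted p = 0.015). Of the 10 export and hepcidin genes 4 were in the table, and 3 were called, all as higher, beside 27.8% of all genes called as higher.

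Slc11a1, on chromosome 1 from 74414303 to 74425448, read 230, 237 and 275 CPM in F4/80high and 177, 214 and 300 CPM in F4/80low replicates 1 to 3. The groups overlapped because of F4/80low replicate 3. The log2 fold change was 0.10, with an interval from −0.31 to 0.52 (adjusted p = 0.67). Without that library it was 0.34 (adjusted p = 0.081), and without F4/80low replicate 1 it was −0.06 (adjusted p = 0.79).

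Neither ferritin chain was called on its own. Fth1, the chain that oxidizes iron for storage, read 3511, 3368 and 3308 CPM in F4/80high and 3677, 2959 and 4526 CPM in F4/80low replicates 1 to 3, with a log2 fold change of −0.13 (interval −0.48 to 0.22, adjusted p = 0.51). Ftl1, the chain that helps form the iron core, read 3720, 3719 and 3462 CPM and 2687, 2462 and 3788 CPM, with a log2 fold change of 0.29 (interval −0.08 to 0.66, adjusted p = 0.18). In both genes F4/80low replicate 3 was the highest library of the 6. Without it, Ftl1 was called at 0.50 ± 0.11 (adjusted p = 0.0081), whereas Fth1 changed sign to 0.04 (adjusted p = 0.84). Under upper-quartile scaling Ftl1 was called as well (0.38, adjusted p = 0.076).

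The balance of both chains separated the gates in every library, F4/80low replicate 3 included. The ratio of Fth1 to Ftl1 counts was 0.944, 0.905 and 0.956 in F4/80high and 1.37, 1.20 and 1.19 in F4/80low replicates 1 to 3, that is 0.935 ± 0.0262 against 1.26 ± 0.0983 (SD, n = 3). The groups did not overlap, beside 58.4% of all genes without overlap between the gates. An exact two-sided permutation test gave p = 0.1, the smallest that 3 libraries against 3 allow. Without overlap this test can give no other value, so it adds nothing to the lack of overlap. The difference of −0.32 lay between −0.35 and −0.26 with any 1 library left out. Library scaling cancels in this ratio, which was examined after the data were seen. Both chains have near-identical copies in the genome that could share reads. Ftl1-ps1, on chromosome 13 from 74547778 to 74556113 and listed as protein coding, was the only one of 5 such genes in the macrophage table, at 60.6 to 121 CPM. With its counts added to Ftl1 the ratio was 0.912 ± 0.0263 against 1.22 ± 0.0966.

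Of the other storage genes, Pcbp1, an iron chaperone that loads ferritin, was lower in F4/80high cells with 376 to 414 CPM against 448 to 470 CPM (log2 fold change −0.23, adjusted p = 0.047). That call was lost under upper-quartile scaling (−0.14, adjusted p = 0.19) and without F4/80high replicate 1 or F4/80low replicate 2. Pcbp2 and Ncoa4, the receptor that delivers ferritin to lysosomes, were not called (log2 fold changes of 0.00 each).

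Of the uptake members, Trf was called and Tfrc was not. Trf read 473, 353 and 726 CPM in F4/80high and 242, 208 and 236 CPM in F4/80low replicates 1 to 3, and the groups did not overlap. F4/80high cells were higher by 1.18 ± 0.23 on the log2 scale (adjusted p = 0.0035), or 2.26-fold, and 0.85 to 1.39 with any 1 library left out. The 4 hepatocyte markers in the table, of 11 listed, summed to 7.29, 12.1 and 2.04 CPM in F4/80high and 2.92, 5.98 and 2.29 CPM in F4/80low replicates 1 to 3. F4/80high replicate 3 had the most Trf and the lowest hepatocyte sum of its group. The part of hepatocyte RNA in the Trf difference was not tested.

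Tfrc read 50.8, 71.7 and 57.4 CPM in F4/80high and 50.1, 55.0 and 45.8 CPM in F4/80low replicates 1 to 3, and the groups overlapped. The log2 fold change was 0.25 (interval −0.06 to 0.56, adjusted p = 0.16). It passed the threshold with the replicate block (0.24, adjusted p = 0.090), under upper-quartile scaling (0.34, adjusted p = 0.070) and without F4/80high replicate 1 (0.36, adjusted p = 0.062). The 7 cycling genes summed to 1422 to 1688 CPM in F4/80high and 622 to 732 CPM in F4/80low libraries, and all 7 were called as higher. Their part in the Tfrc values was not tested.

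Among the 12 uptake genes tested, 8 were higher in F4/80high cells, 1 was lower and 3 were not called, with a median log2 fold change of 0.82 against 0.01 over all genes. Beside this list and those below, 27.8% of all genes were called as higher and 27.1% as lower. Slc39a8 (ZIP8), an importer of zinc, manganese and iron, led with 21.3, 21.9 and 25.3 CPM against 2.82, 2.73 and 2.34 CPM (log2 fold change 3.11 ± 0.14, adjusted p = 2.7e-06). Slc46a1, a folate transporter that also carries heme, read 10.3 to 11.4 CPM against 3.14 to 3.59 CPM (1.72 ± 0.15, adjusted p = 4.9e-05). Slc11a2 (DMT1), the endosomal iron transporter, read 43.3 to 47.3 CPM against 25.1 to 27.5 CPM (0.81, adjusted p = 0.00012), and Steap3, the endosomal iron reductase, read 38.2 to 41.4 CPM against 21.7 to 26.0 CPM (0.75, adjusted p = 0.00034). The last 2 were named after their values were seen, as partners of Tfrc in the transferrin cycle. Steap4 was the gene that was lower, at 0.0901 to 0.106 CPM against 1.37 to 3.02 CPM (−4.40, adjusted p = 0.00014).

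**Figure D4:**
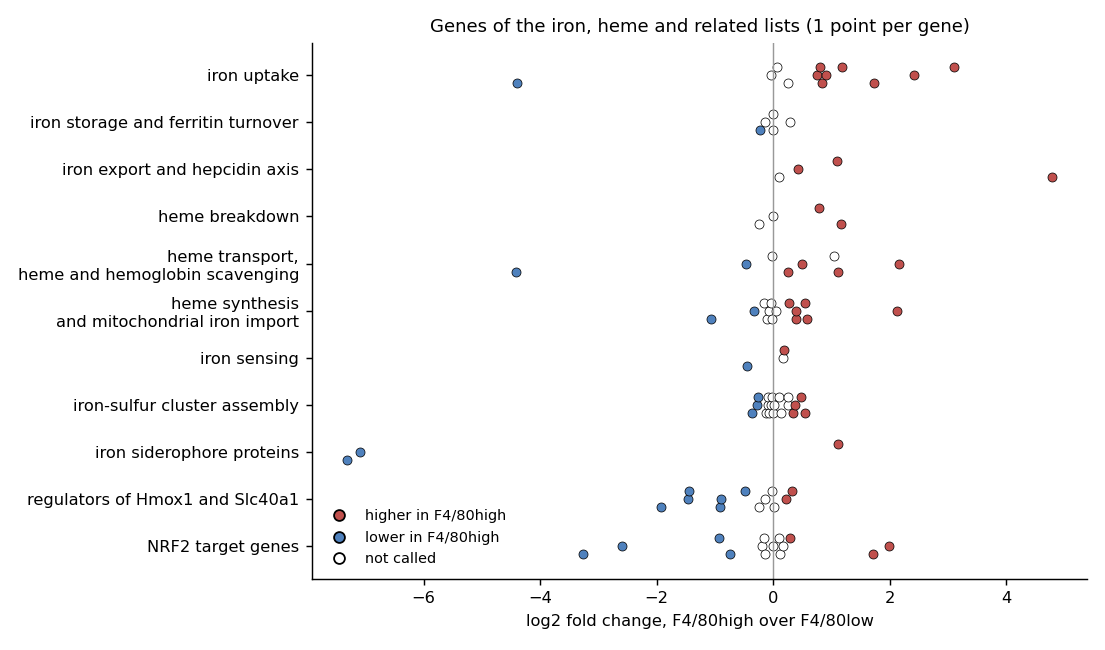
Log2 fold change of each tested gene of the iron, heme and related lists, F4/80high over F4/80low (x axis), by list (y axis), red where called as higher, blue where called as lower and white where not called. Of the uptake genes 8 of 12 are red, beside 27.8% of all genes called as higher, and the point furthest to the right is Cp at 4.79.

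Heme transport genes went both ways, with 4 of 8 higher, 2 lower and 2 not called. Hebp1, a heme-binding protein, read 21.4 to 29.0 CPM against 4.64 to 5.94 CPM (log2 fold change 2.16 ± 0.16, adjusted p = 2.6e-05). Abcg2, which exports heme and porphyrins among other substrates, was higher by 1.12 ± 0.16 (adjusted p = 0.00065) and Pgrmc2, a heme chaperone, by 0.49 ± 0.09 (adjusted p = 0.0023). Haptoglobin (Hp), which binds free hemoglobin, was lower, with 2.66, 3.68 and 1.04 CPM against 47.7, 43.9 and 64.8 CPM (−4.42 ± 0.36, adjusted p = 4.0e-05), as was Flvcr1, a heme and choline transporter (−0.47, adjusted p = 0.0028). Cd163, the receptor for the hemoglobin and haptoglobin complex, read 2.66 to 6.53 CPM against 1.77 to 3.38 CPM (0.91, adjusted p = 0.077) and overlapped. It belongs to the uptake list above, where it was among the 8 genes called as higher.

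Of 14 genes of heme synthesis and mitochondrial iron import, 6 were higher, 2 lower and 6 not called. Abcb6, a porphyrin transporter, read 16.6 to 19.6 CPM against 4.11 to 4.20 CPM (log2 fold change 2.13 ± 0.13, adjusted p = 7.7e-06). Fech, which inserts iron into protoporphyrin, was higher by 0.59 (adjusted p = 0.0027) and Alad, an earlier enzyme of the pathway, by 0.54 (adjusted p = 0.024). Slc25a38, which imports glycine for heme synthesis, was lower (−1.07 ± 0.10, adjusted p = 8.5e-05), as was Slc25a28, a mitochondrial iron importer (−0.33, adjusted p = 0.027). Alas1, the first enzyme, was not called at 82.6 to 93.0 CPM against 89.1 to 94.3 CPM.

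Of the iron sensors, Ireb2 (IRP2) was higher by 0.19 (adjusted p = 0.092), a call lost in 12 of 18 alternatives, and Fbxl5, which marks Ireb2 for degradation when iron is plentiful, was lower (−0.46 ± 0.13, adjusted p = 0.022). Aco1 (IRP1) was not called (0.18, adjusted p = 0.17). Iron-sulfur cluster genes were called as higher in 4 of 19, as lower in 3 and not in 12. Mms19 was higher by 0.38 (adjusted p = 0.0041) and Cisd1 by 0.35 (adjusted p = 0.092), the latter call being lost in 9 of 18 alternatives. Iscu, the scaffold on which clusters form, was lower (−0.36, adjusted p = 0.015), as were Ciao2b (−0.28, adjusted p = 0.060) and Nubp1 (−0.27, adjusted p = 0.063), whose calls were lost in 6 of 18 alternatives each. Of the 3 siderophore and lactoferrin genes 1 was higher and 2 were lower. Slc22a17, a receptor for lipocalin 2, read 1.42 to 2.33 CPM against 0.692 to 0.952 CPM (log2 fold change 1.11 ± 0.31, adjusted p = 0.019). Lcn2, which binds siderophores, and Ltf, lactoferrin, which binds iron itself, are both also granule genes of neutrophils. They were at 0 to 0.0973 CPM in F4/80high and 1.26 to 19.9 CPM in F4/80low libraries. The 7 neutrophil markers in the table summed to 73.9 to 104 and 97.7 to 185 CPM. Of these markers 6 were called as lower in F4/80high cells and 1 was not called, beside 27.1% of all genes called as lower. Their median log2 fold change was −4.41. The part of neutrophils in the Lcn2 and Ltf values was not tested.

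Over all lists of iron and heme genes without regulators and NRF2 targets, 29 of 72 genes were higher, 12 lower and 31 not called, and the median log2 fold change was 0.12 against 0.01 over all genes. Of all genes 27.8% were higher and 27.1% lower. Among 12 regulators of Hmox1 and Slc40a1, 2 were higher, 6 lower and 4 not called. Bach2, a heme-sensing repressor related to Bach1, read 11.5 to 12.2 CPM in F4/80high and 30.1 to 36.8 CPM in F4/80low libraries (log2 fold change −1.47 ± 0.10, adjusted p = 1.9e-05). The small Maf genes Maff (−1.92, adjusted p = 0.00034) and Mafk (−0.91, adjusted p = 0.00022) were lower, while Mafg was higher by 0.33 (adjusted p = 0.068) and overlapped. Tfe3 was higher by 0.22 (adjusted p = 0.063). The calls of Mafg and Tfe3 were lost in 6 of 18 alternatives each. Bach1, the repressor of Hmox1 that heme inactivates, read 104 to 121 CPM against 140 to 169 CPM (−0.48, adjusted p = 0.0052). Nfe2l2, which encodes NRF2, the activator of Hmox1, was not called (−0.14, adjusted p = 0.18), nor was its inhibitor Keap1 (0.02, adjusted p = 0.87).

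Of 14 other NRF2 targets 3 were higher, 4 lower and 7 not called, beside 27.8% higher and 27.1% lower over all genes. Me1, malic enzyme, was higher by 1.99 ± 0.30 (adjusted p = 0.00091) and Prdx1, a peroxiredoxin, by 0.29 (adjusted p = 0.087), a call lost in 7 of 18 alternatives. Slc7a11, the cystine importer, was lower with 1.98, 1.35 and 1.23 CPM against 15.9, 9.63 and 17.7 CPM (−3.26 ± 0.29, adjusted p = 5.9e-05). Gsr, glutathione reductase, was lower (−2.60 ± 0.21, adjusted p = 3.4e-05), as was Taldo1, transaldolase (−0.94 ± 0.09, adjusted p = 7.8e-05).

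The lymphocytes were prepared with another library kit and counted in another table, so they were compared only among themselves. Hmox1, Slc40a1, Slc11a1 and Blvrb were at the edge of detection there. Hmox1 was at 0, 0 and 1 counts in LM CD49a- NK replicates 1 to 3, at 0, 0 and 23 in LM CD49a+ NK, at 5, 27 and 8 in MFL NK and at 0, 55 and 56 in MFL ILC1 cells. Slc40a1 was at 0 counts in all 6 LM libraries and at 0 to 18 in the 6 MFL libraries. Slc11a1 was at 0 to 33 counts and Blvrb at 0 to 117 in the 12 libraries. At these counts, several of them at or below 3, no fold is given.

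Macrophage transcripts were also scarce in these libraries. C1qa was at 0 to 12 counts, and the Kupffer cell gene Cd5l was at 0 in the LM libraries and at 0 to 29 counts in the MFL libraries. The 6 Kupffer cell markers summed to 0 CPM in every LM library and to 0.367 to 5.53 CPM in the MFL libraries. The 4 hemoglobin genes summed to 89.2, 856 and 618 CPM in MFL ILC1 and 212, 726 and 242 CPM in MFL NK replicates 1 to 3. They summed to 119, 552 and 124 CPM in LM CD49a- NK and 154, 223 and 77.2 CPM in LM CD49a+ NK replicates 1 to 3. The part of Kupffer cells and of hemoglobin RNA in the Hmox1 and Slc40a1 counts was not tested. The macrophage list summed to 33.6 to 1173 CPM, most of it Itgam, which NK cells express. Of the 8 members Tfrc, Trf, Fth1 and Ftl1 had a mean of at least 5 CPM.

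Tfrc gave the only call among the members in the 5 comparisons of lymphocytes and in the comparison of the CD49a difference between the sites. The latter, or interaction, set LM CD49a+ minus LM CD49a- NK against MFL ILC1 minus MFL NK cells. In MFL, CD49a and cell type therefore cannot be told apart. Tfrc read 28.9, 26.1 and 32.7 CPM in MFL NK, 21.5, 17.0 and 15.6 CPM in MFL ILC1, 59.3, 31.9 and 64.1 CPM in LM CD49a- NK and 71.8, 45.4 and 52.7 CPM in LM CD49a+ NK replicates 1 to 3. The LM CD49a+ libraries were all above the MFL libraries of both kinds, and MFL ILC1 libraries were the lowest. Tfrc was higher in LM CD49a+ NK cells than in MFL ILC1 by 1.65 ± 0.42 (56.7 ± 13.6 against 18.0 ± 3.06 CPM, SD, n = 3, adjusted p = 0.048), or 3.14-fold. In this comparison 1 of 7 members tested was called, against 3.58% of 13594 genes. The call was lost without LM CD49a+ replicate 1 (1.45, adjusted p = 0.18), without MFL ILC1 replicate 2 (1.61, adjusted p = 0.21) and without MFL ILC1 replicate 3 (1.56, adjusted p = 0.24).

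The other differences of Tfrc were not called. Relative to MFL NK cells it differed by 0.95 ± 0.41 in LM CD49a+ NK (adjusted p = 0.47) and by −0.70 ± 0.41 in MFL ILC1 cells (adjusted p = 0.89), both with no overlap, where 20.1% and 25.3% of all genes did not overlap. LM CD49a- NK cells differed from them by 0.82 ± 0.41 with overlap (adjusted p = 0.76). The CD49a difference within LM was 0.13 ± 0.41 (adjusted p = 0.95), and that difference minus the one within MFL was 0.83 ± 0.58 (adjusted p = 0.79). The order of the means was thus LM CD49a+ (56.7 CPM), LM CD49a- (51.8), MFL NK (29.2) and MFL ILC1 (18.0), and no neighbours in it passed the test.

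No member was called within LM (0.14% of genes called), in LM CD49a- relative to MFL NK cells (0.0736%), in LM CD49a+ relative to MFL NK cells (0.647%), in the comparison of both MFL populations (3.06%) or in the interaction of CD49a and site (1.03%). At an unadjusted p under 0.05 edgeR's quasi-likelihood test gave 0 members in each of these except 1, Tfrc, in LM CD49a+ relative to MFL NK cells. DESeq2 called 0 members in each of them, and limma-voom 0 except 3, Fth1, Trf and Tfrc, within MFL. No member tested was without overlap within LM, beside 9.82% of all genes. For LM CD49a- relative to MFL NK cells only Hmox1 was, beside 16.2% of all genes, at 0, 0 and 1 counts against 5, 27 and 8.

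Cycling genes followed the same order of populations as Tfrc at both ends. The 7 genes summed to 854 to 1341 CPM in LM CD49a+ NK, 469 to 830 CPM in LM CD49a- NK, 583 to 702 CPM in MFL NK and 296 to 402 CPM in MFL ILC1 libraries. Within LM CD49a- NK cells, however, replicate 3 held the most Tfrc and the fewest cycling transcripts. The 6 T cell markers summed to 247 to 681 CPM in MFL ILC1 and 5.18 to 35.7 CPM in LM CD49a+ NK libraries. They summed to 4.98 to 14.7 CPM in MFL NK and 11.9 to 17.7 CPM in LM CD49a- NK libraries. The part of cycling cells, and of cells with T cell transcripts, in the Tfrc difference was not tested.

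**Figure D5:**
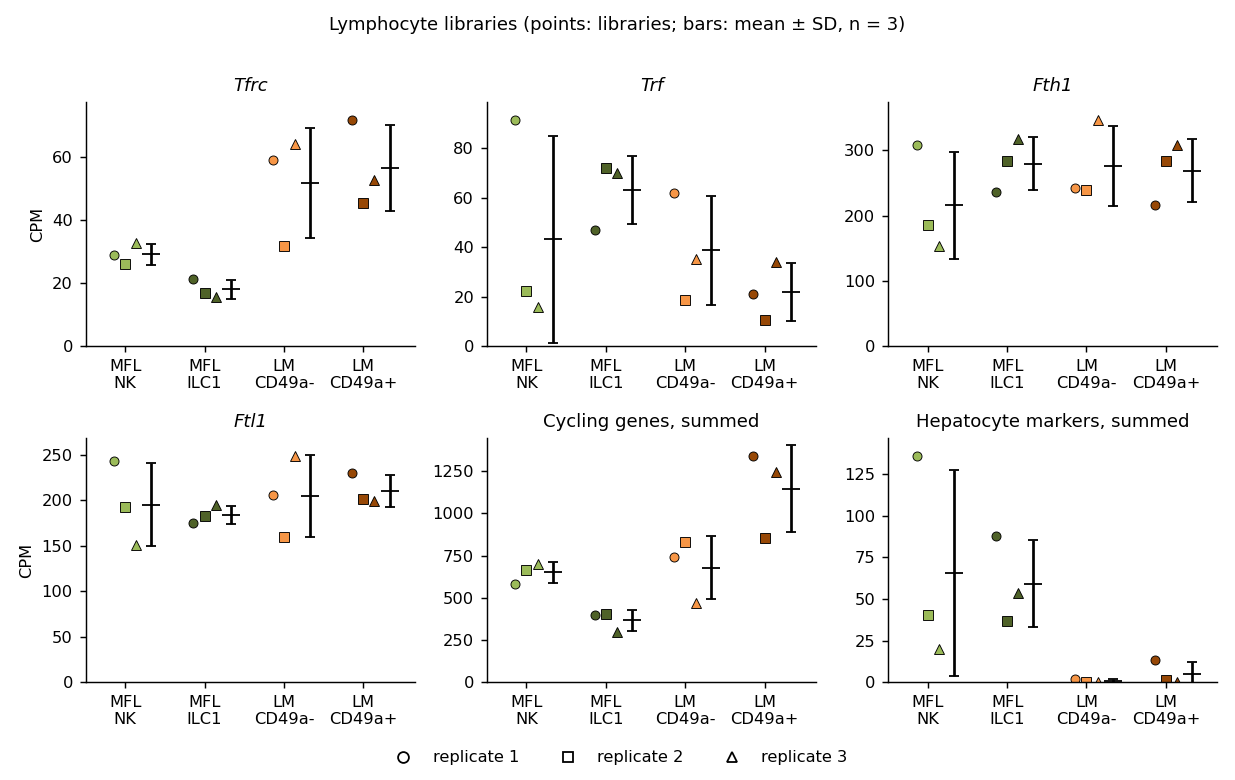
CPM (y axes, from 0) of Tfrc, Trf, Fth1 and Ftl1, of 7 cycling genes summed and of 11 hepatocyte markers summed in the 12 lymphocyte libraries, with the mean ± SD of 3 libraries as a bar. Tfrc and the cycling genes are lowest in MFL ILC1, and hepatocyte RNA is found mostly in the MFL libraries, with MFL NK replicate 1 highest at 136 CPM.

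Trf varied more within populations than between most of them. It read 91.4, 22.3 and 16.0 CPM in MFL NK, 47.1, 72.1 and 69.8 CPM in MFL ILC1, 62.1, 18.6 and 35.3 CPM in LM CD49a- NK and 21.2, 10.4 and 34.1 CPM in LM CD49a+ NK replicates 1 to 3. MFL NK replicate 1 stood far above the other libraries of its population. It was also the library with the most hepatocyte RNA, at 136 CPM over the 11 markers against 40.1 and 20.04 CPM in MFL NK replicates 2 and 3, 36.5 to 87.5 CPM in MFL ILC1 and 0 to 13.1 CPM in the LM libraries. In LM CD49a- NK replicate 2, however, all 11 hepatocyte markers were at 0 while Trf read 18.6 CPM. Trf differed by −1.53 ± 0.63 in LM CD49a+ NK relative to MFL ILC1 cells without overlap (23.2% of all genes), and this was not called (adjusted p = 0.28). It was called with no low-count filter (−1.54, adjusted p = 0.084) and with limma-voom (−2.05, adjusted p = 0.092). The part of hepatocyte RNA in it was not tested.

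The ferritin chains were close in all 4 populations. Fth1 lay between 153 and 347 CPM and Ftl1 between 151 and 249 CPM in the 12 libraries. Fth1 averaged 216 ± 81.8 CPM in MFL NK, 279 ± 40.7 in MFL ILC1, 276 ± 61.2 in LM CD49a- NK and 269 ± 47.7 in LM CD49a+ NK cells, and Ftl1 averaged 195 ± 46.0, 184 ± 9.99, 204 ± 44.8 and 210 ± 17.4 CPM. The populations overlapped in Fth1, and in Ftl1 they overlapped except for LM CD49a+ NK and MFL ILC1, which were not called (log2 fold change 0.19, adjusted p = 0.85). Together both chains took 0.0325% to 0.0537% of the counts. The ratio of Fth1 to Ftl1 ran from 0.937 to 1.63. It was 1.35 to 1.63 in MFL ILC1 and 0.967 to 1.27 in MFL NK libraries, which did not overlap, whereas both LM populations overlapped with each of them.

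Beyond the members, 2 genes of the iron, heme and regulator lists were called in the lymphocytes. Maff was higher in LM CD49a+ NK than in MFL NK cells, with 169, 46.7 and 275 CPM against 26.3, 20.8 and 23.3 CPM in replicates 1 to 3 (log2 fold change 2.80, adjusted p = 0.084). Abcg2 was higher in LM CD49a+ NK than in MFL ILC1 cells, with 78.1, 21.7 and 14.3 CPM against 14.3, 6.44 and 4.55 CPM (2.17, adjusted p = 0.096). Both calls were close to the threshold, and they were lost in 6 of 15 alternatives for Maff and 4 of 15 for Abcg2. With 1 library left out the adjusted p ran from 0.023 to 0.32 for Maff and from 0.044 to 0.48 for Abcg2. The value of Abcg2 was 1.11 without LM CD49a+ replicate 1. The lists of iron and heme genes without regulators and NRF2 targets had 64 genes tested, of which 2 were called in the comparison of LM CD49a+ NK with MFL ILC1 cells, Tfrc and Abcg2, and 0 in the other 5.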

How the data were processed

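Bulk RNA-seq was made from sorted cells, with stranded total RNA for the lymphocytes and directional poly(A) libraries for the macrophages. Per the submitters' processing notes, reads were trimmed with Trim Galore and assigned with Salmon v1.5.0 (lymphocytes) or v1.10.0 (macrophages) on GRCm39. The authors deposited estimated counts per gene without normalization, and all deposited values were whole. The macrophage table held only genes with a total of at least 37, so its filter preceded deposit. IDs were named from GENCODE vM39 (13726 of 13759 and 53700 of 54309).

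Genes were filtered with filterByExpr (13759 and 13594 kept), scaled by TMM and tested in R v4.3.3 with edgeR v4.0.16, in 1 fit of the 6 macrophage libraries and 1 of the 12 lymphocyte libraries, with group as the only term. Adjusted p-values are Benjamini-Hochberg values, called under 0.1. The SE is the log2 fold change divided by the square root of F and is approximate. Alternatives used DESeq2 v1.42.0, limma v3.58.1, other scalings, other filters, a replicate block and left-out libraries, and the code was tested on simulated data. Plots used matplotlib v3.10.9.

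All members were named. List genes were named when called with a mean of at least 5 CPM, up to 3 per list and direction except 1 gene that is not reported here, and a few others are given as chosen later, among them Hmox2, Cd163, Steap4, Lcn2, Ltf, Slc22a17, Alas1, Bach1, Nfe2l2, Keap1, Aco1, Pcbp2 and Ncoa4. The members, lists and rules were chosen with earlier results of these data known. Per the study's text the lymphocyte libraries came from 3 independent sorts of pooled mice. No source used here says whether the macrophage libraries came from separate animals, so their p-values measure only the spread between these libraries, which may be technical.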

Additional observations from a re-analysis of the deposited data

How the results depend on the processing

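Between the macrophage gates, the 3 calls became 6 without F4/80low replicate 3 and 5 without both replicate 3 libraries or under upper-quartile scaling. The count ran from 3 to 6 with 1 library left out and from 2 to 6 over all 18 alternatives. Slc40a1 lost its call without both replicate 1 and without both replicate 2 libraries, and a minimum of 5 CPM left it untested. Blvrb and Trf were called in all 18 alternatives. Hmox1 turned to 0.045 with the replicate block and to 0.57 without both replicate 3 libraries and ran from −0.55 to 0.66 with 1 library left out. Fth1 turned to 0.049 without both replicate 3 libraries and ran from −0.27 to 0.035, and Slc11a1 turned to −0.0070 without both replicate 1 libraries and ran from −0.063 to 0.34. Of 34 other list genes named, 34 kept their direction in every alternative and 23 were called in each.

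In the lymphocytes, members called between LM CD49a+ NK and MFL ILC1 were 2, Tfrc and Trf, with no filter or with limma-voom and 0 to 1 with 1 library left out, and between MFL ILC1 and MFL NK they were 3 with limma-voom. Limma-voom also turned the log2 fold change within LM to −0.050 for Ftl1 and −0.034 for Tfrc, that of Trf between LM CD49a- and MFL NK to 0.74, and that of Ftl1 to 0.046 between MFL ILC1 and MFL NK and to −0.096 in the interaction. None of these values passed the threshold with all libraries. With 1 library left out, differences that changed sign ran, within LM, from −0.15 to 0.16 for Fth1, from −0.11 to 0.20 for Ftl1 and from −0.12 to 0.31 for Tfrc. Between LM CD49a+ NK and MFL ILC1 Fth1 ran from −0.17 to 0.087. Against MFL NK, Ftl1 ran from −0.11 to 0.25 for LM CD49a-, from −0.052 to 0.29 for LM CD49a+ and from −0.24 to 0.099 for MFL ILC1, and Trf from −0.68 to 1.01 for LM CD49a- and from −1.45 to 0.19 for LM CD49a+. Ftl1 ran from −0.061 to 0.31 in the interaction. The causes were not tested.

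Counts of genes called in the lymphocytes moved with the tool, the filter and single libraries. Within LM 19 became 543 with DESeq2, 200 with no filter, 12 with a minimum of 5 CPM and 0 with limma-voom. Between LM CD49a- and MFL NK 10 became 161, 158, 5 and 104. Between LM CD49a+ and MFL NK 88 became 365, 371 with no filter and 307 with limma-voom. Between MFL ILC1 and MFL NK 416 became 667 with DESeq2 and 2645 with limma-voom, between LM CD49a+ NK and MFL ILC1 486 became 1010, 774 with no filter and 935 with limma-voom, and in the interaction 140 became 349 with DESeq2 and 264 with no filter. With 1 library left out they ran from 5 (without LM CD49a+ replicate 1) to 267 (without LM CD49a- replicate 3) within LM, from 1 (without MFL NK replicate 1) to 110 (without LM CD49a- replicate 3) for LM CD49a- and from 26 (without MFL NK replicate 1) to 162 (without LM CD49a+ replicate 2) for LM CD49a+ against MFL NK, from 268 to 299 within MFL, from 257 (without MFL ILC1 replicate 3) to 585 for LM CD49a+ NK against MFL ILC1, and from 75 (without MFL NK replicate 2) to 256 (without LM CD49a- replicate 3) in the interaction.

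Whether replicate numbers pair the libraries could not be settled with 3 libraries per group. In the macrophages, deviations from the group means correlated at −0.0145 to 0.172 for the same number and −0.123 to 0.0907 for different numbers. In the lymphocytes they correlated at −0.0452 to 0.0981 and at −0.108 to 0.0836. The replicate block changed the call of Tfrc between the macrophage gates (0.24) and of no other member. Counts limit Slc40a1 in the macrophages and Hmox1, Slc40a1, Slc11a1 and Blvrb in the lymphocytes.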
